A study of Vitis vinifera and Vitis riparia and Vitis amurensis with 189 samples.

Results

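The late phase of deacclimation in buds of the wild grapevine V. amurensis was followed by comparing 3 libraries of day 10 with 3 libraries of day 5 at room temperature. These are 6 of the 189 libraries in the series, and they were taken by genotype, day and replicate number in the labels. All V. amurensis buds came from dormant canes cut to single nodes and kept in water at room temperature. Sampling of each genotype ran until budburst was seen, which for V. amurensis was day 10, and whole buds were frozen for total RNA. By the labels the groups therefore share the genotype, the tissue and the forcing, and differ in the days of warmth. Their libraries also differ in technical measures, which are given below. Buds of days 7, 8 and 9, with 3 libraries each, show the course between. V. riparia, the other wild species, gave 3 libraries on each of days 5 and 10 under the same forcing. According to the labels, 2 clonal vines of the wild species stand in a USDA repository, and no label ties a library to a vine. The p-values below therefore measure the spread between these samples, which may be technical. In a whole bud, fewer cells of a type and less RNA per cell cannot be told apart.

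A grapevine bud holds a shoot that was formed in the previous summer and rests over winter in a cold-hardy state. Warmth ends this state step by step. The bud first loses cold hardiness with little outward change, and later its tissues take up water, divide and expand until green tissue breaks through the scales. V. amurensis grows wild in north-east Asia and is used by breeders as a source of cold hardiness. The files do not pair their gene identifiers with gene names, and none of the 42394 identifiers matched the gene table used here. The genes are therefore described by their levels and courses. By a rule on the size of change, 2 genes that rose and 2 that fell are given by identifier.

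Total gene counts were 5317622, 10147073 and 7551335 in day 5 replicates 1 to 3 and 9051882, 1718825 and 12483671 in day 10 replicates 1 to 3. A level under 3 counts was treated as not visible, which corresponds to 0.240 to 1.75 CPM (the count scaled to 1000000 gene counts) in these 6 libraries. This floor covers counting error only. On days 7 to 9 the totals ran from 373129, in day 9 replicate 1, to 16016033. The share of records outside annotated genes, the no-feature share, was 34.9% in day 10 replicate 2 and 38.3% in day 9 replicate 2, and at most 18.9% in the other 13 libraries of days 5 to 10. The share of records that fit more than 1 gene, the ambiguous share, was 0.22%, 0.21% and 0.23% in day 5 replicates 1 to 3. In day 10 replicates 1 to 3 it was 0.21%, 0.10% and 0.14%. The part of the ambiguous share in the comparison of day 10 with day 5 was not tested. Markers that separate V. amurensis from V. riparia on days 0 to 4 numbered 1 for V. amurensis and 3 for V. riparia, and by these 13 of the 15 V. amurensis libraries from day 5 on had at least 90% of their marker counts from their own species. The other 2 were day 7 replicate 3 at 61.9% and day 5 replicate 1, one of the compared libraries, at 83.0%. When only libraries with at least 1000000 counts chose the markers, there were 4 and 5 of them, and the share was 93.2% to 100% in all 15.

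Between day 5 and day 10 more genes passed as higher than as lower, and the median increase among them exceeded the median decrease. Of 20932 genes tested, 2847 passed, which is 13.6% of them. Higher on day 10 were 1581 genes (7.55% of those tested) and lower were 1266 (6.05%). The median log2 fold change of the genes that rose was 1.88, and that of the genes that fell was -1.40. Over all genes tested it was -0.01. A change of at least 4-fold was reached by 744 rising and 348 falling genes, and one of at least 16-fold by 234 and 63. The test was edgeR's quasi-likelihood test on all days of V. amurensis, and passing means an adjusted p (Benjamini-Hochberg) under 0.05. Without day 5 replicate 3 the count was 1621, and with only days 5 and 10 in the fit it was 1783.

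The days were also compared library by library, in CPM without the scaling between libraries that the test used. The 3 day 10 values lay above all 3 day 5 values, or below them, in 31.7% of all genes tested, 10.3% above and 21.4% below. By this count more genes lay below than above, unlike among the genes that passed. Among the 1581 genes that rose, 1399 were free of overlap, and among the 1266 that fell, 1255 were. The test selected these genes by the same values, so these 2 counts describe them and add no evidence. The same holds for the 1442 rising genes (91.2%; 14.2% of all genes tested) in which replicates 1 and 3 of day 10, the ones without the high no-feature share, both lay above every day 5 library. Without the libraries above 25% no-feature share, 1279 of the genes that rose (80.9%) and 812 of those that fell (64.1%) passed again in the same direction, in a fit that shares most of its libraries with the first. The median log2 fold change of the rising genes was then 1.85.

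Among the genes that rose, Vitvi12g00248 had the largest change under the naming rule. Its level on day 5 was 5.83, 0.986 and 1.46 CPM in replicates 1 to 3. On day 7 it was 183, 42.2 and 34.5 CPM, and on day 8 it was 984, 465 and 624 CPM. All libraries of day 8 lay above all of day 7, and all of day 7 above all of day 5. On day 9 it was at 1043, 234 and 835 CPM, and on day 10 at 1629, 970 and 658 CPM. The ranges of days 8, 9 and 10 overlap. Its log2 fold change from day 5 to day 10 was 8.95 ± 0.861 (SE, n = 3 and 3; edgeR adjusted p = 2.11e-07). No read of it was counted in any of the 5 day 0 libraries, and its day 4 mean was 0.543 ± 0.333 CPM (SD, n = 3).

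Vitvi04g00998 followed a like course at a lower level. Day 5 replicates 1 to 3 held 2.63, 0.493 and 0.132 CPM of it, from 14, 5 and 1 counts. Day 7 held 62.1, 19.1 and 14.8 CPM, and day 8 held 136, 73.4 and 99.9 CPM. It was at 121, 86.0 and 228 CPM on day 9 and at 160, 226 and 243 CPM on day 10. Every day 10 library lay above every day 8 library, and day 9 overlapped both. Its log2 fold change was 7.93 ± 0.653 (SE; edgeR adjusted p = 3.46e-08), and it too had no count on day 0. The day 7 step passed for both genes, at 5.12 for Vitvi12g00248 (edgeR adjusted p = 0.000509) and 5.11 for Vitvi04g00998 (edgeR adjusted p = 0.000118) on the log2 scale.

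Among the genes that fell, Vitvi13g01902 had been raised first. Day 0 libraries held 1.38 to 3.27 CPM, and it rose on day 1 by 4.06 ± 0.651 on the log2 scale (SE; edgeR adjusted p = 3.75e-05). On day 5 it stood at 203, 220 and 153 CPM, the highest day of its course. It was at 53.9, 63.8 and 143 CPM on day 7 and at 13.9, 40.2 and 35.4 CPM on day 8. Day 9 gave 8.04, 17.2 and 3.25 CPM and day 10 gave 3.65, 2.91 and 2.16 CPM. Every day 10 library lay below every day 8 library, while days 9 and 10 overlapped. Its change from day 5 to day 10 was -5.85 ± 0.772 (SE; edgeR adjusted p = 6.38e-06), and its day 10 values overlap those of day 0.

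Vitvi05g01947 also stood low on day 0, at 0 to 8.30 CPM, and rose between days 1 and 4 by 5.06 ± 1.29 on the log2 scale (SE; edgeR adjusted p = 0.00339). Its replicates differed widely. Day 5 held 205, 7.79 and 40.4 CPM, day 7 held 10.9, 5.31 and 31.5 CPM, and day 8 held 3.29, 13.8 and 64.1 CPM. On day 9 the values were 0, 3.04 and 0.437 CPM, and on day 10 they were 0.884, 2.33 and 0.721 CPM. All day 10 libraries lay below all day 5 libraries, as the naming rule required, the gap being smallest to day 5 replicate 2. The log2 fold change was -6.24 ± 1.53 (SE; edgeR adjusted p = 0.0062).

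**Figure D1:**
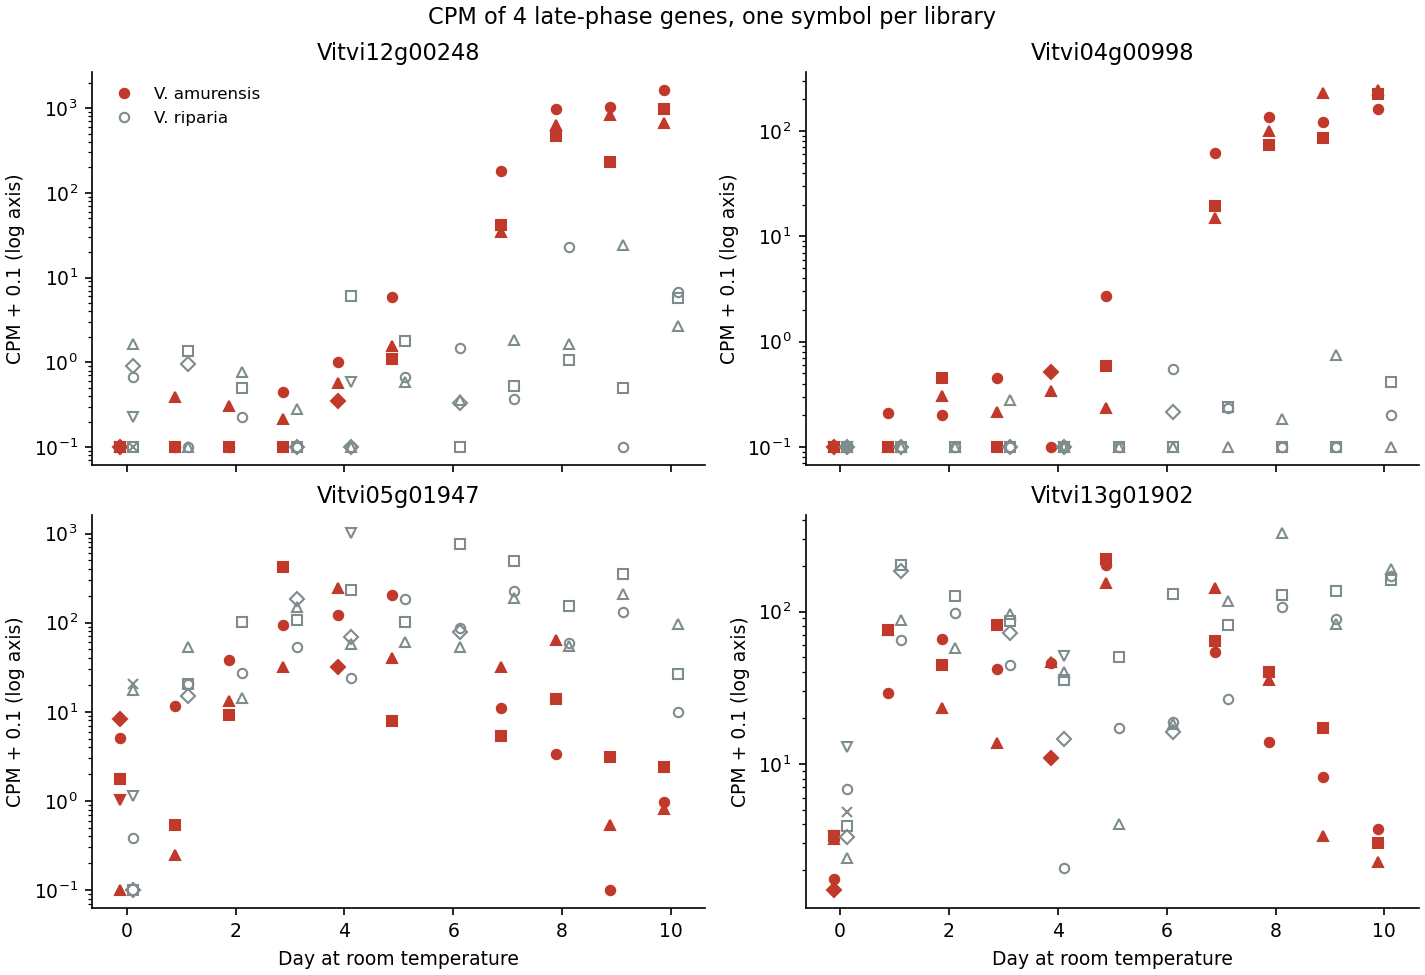
CPM plus 0.1 on a log axis against the day at room temperature for the 4 named genes, one symbol per library and its shape marking the replicate number, with V. amurensis filled and V. riparia open. The genes in the upper row stood at or under 5.83 CPM in V. amurensis up to day 5 and at 14.8 CPM or above from day 7 on, and those in the lower row ended at or below 3.65 CPM.

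The 20 genes with the largest increases under the naming rule rose by 5.015 to 8.95 on the log2 scale. Their day 5 means ran from 1.04 to 42.8 CPM, with a median of 2.00, and their day 10 means from 53.2 to 2620 CPM, with a median of 111. Of these 20, 13 had stayed under 1 CPM in every daily mean of days 0 to 4. The 20 genes with the largest decreases fell by 3.70 to 6.24 on the log2 scale. Their day 5 median of 72.6 CPM compares with 3.51 CPM on day 10. Passing increases had come at day 1 in 8 of them (15.6% of all genes tested) and passing decreases in 0. Between days 1 and 4, 7 had risen (20.4% of all) and 3 had fallen (13.9% of all).

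The course between the days was read from separate contrasts that use the same fit. Few genes passed between neighbouring sampled days in this fit, and the counts depended on the setting. No V. amurensis library comes from the day between days 5 and 7, so that step spans 2 days and the others 1. Day 7 differed from day 5 in 112 genes (0.535% of those tested), of which 103 were higher (0.492%). Day 8 differed from day 7 in 23 (0.11%), of which 21 were higher (0.1%). No gene (0%) passed between days 8 and 9 or between days 9 and 10. At an unadjusted p under 0.05 there were 1913 (9.14%) and 644 genes (3.08%) for these steps in edgeR. The 3.08% is below the share that a p under 0.05 gives on average without any change. DESeq2 called 108 and 2 genes for these steps. By correlations in these same libraries, replicate numbers paired days 5 and 7, 7 and 8, and 9 and 10. With the number as a block in a fit of the 2 days alone, these steps gave 549, 132 and 102 genes, and with it in the fit of all days they gave 95, 29 and 0. The pairs were chosen on the libraries of these steps, so the block counts are no separate evidence for them. Set against day 5 directly, day 8 differed in 867 genes (4.14%; 592 higher, 275 lower) and day 9 in 1974 (9.43%; 969 higher, 1005 lower). Leaving out 1 library moved these counts to between 336 (without day 5 replicate 3) and 1301 (without day 8 replicate 3), and to between 889 (without day 9 replicate 3) and 2175 (without day 9 replicate 1). For day 9 the count was also 1086 with the 2 days alone in the fit, 577 (346 higher, 231 lower) with a replicate block added there, and 1255 (755 higher, 500 lower) in libraries of at most 25% no-feature share, so the larger direction changes with the setting. These last 2 contrasts share the day 5 libraries with the comparison of day 10.

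The genes that passed in the first steps were mostly increases, and the largest median step of the strongly falling genes was the one from day 8 to day 9. Among the 744 genes that rose at least 4-fold, the median share of the whole change on the log2 scale that was in place was 36.4% on day 7, 72.2% on day 8 and 78.9% on day 9. For the 348 genes that fell at least 4-fold it was 29.8%, 50.3% and 92.8%. Their median step was -0.66 from day 5 to 7, -0.59 from day 7 to 8, -1.07 from day 8 to 9 and -0.51 from day 9 to 10 on the log2 scale. These shares and steps use the day 5 or day 10 libraries that chose the genes, apart from days 7 to 9 among themselves. The step from day 8 to 9 coincides with a change in the libraries. Across genes, the deviations of same-numbered libraries from their day means correlated at 0.25 to 0.39 between neighbouring days of 5, 7 and 8 and at 0.40 to 0.59 between days 9 and 10, but at -0.24 to -0.01 between days 8 and 9. Day 9 also holds the shallowest library, replicate 1. There the median level of the 348 falling genes was -1.82 log2 CPM, the value of a gene without counts. The median was 0.945 and 0.423 in day 9 replicates 2 and 3, both above the 0.313, -0.218 and 0.288 of the day 10 replicates. The 92.8% on day 9 includes replicate 1. The comparison of day 10 with day 5 spans the same change in the libraries. The part of these differences in the step, in the shares and in that comparison was not tested.

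**Figure D2:**
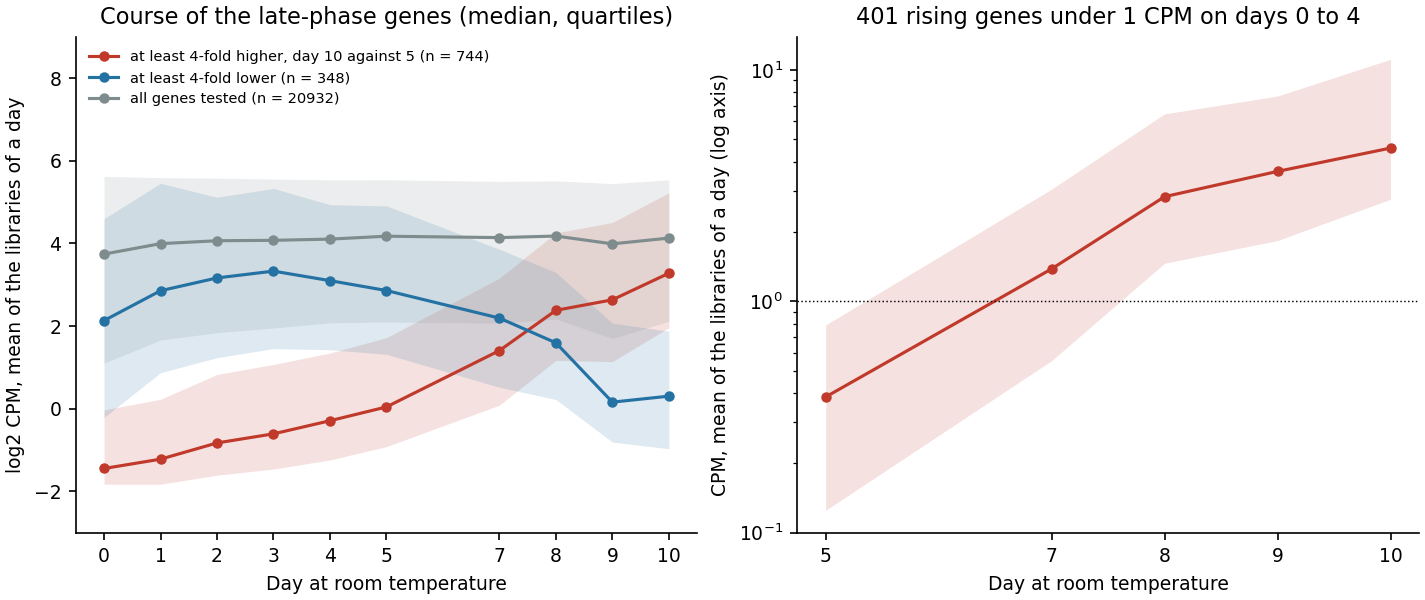
Left, log2 CPM (prior count 2, TMM-scaled) against the day for the 744 genes at least 4-fold higher and the 348 at least 4-fold lower on day 10 than day 5, and for all 20932 genes tested, with lines for the median and bands for the quartiles over genes. Right, CPM on a log axis for the 401 rising genes that stayed under 1 CPM on days 0 to 4, where the median rose from 0.386 on day 5 to 4.59 on day 10.

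Day 9 against day 7 shares no library with day 10 against day 5, but the libraries are not fully independent. Same-numbered libraries deviated together between days 9 and 10 (correlations of 0.40 to 0.59 across genes) and between days 5 and 7 (0.25 to 0.38), and replicate 2 has the high no-feature share on both day 9 and day 10. The part of this in the values that follow was not tested. In this contrast 347 genes passed (1.66%), 148 higher (0.707% of those tested) and 199 lower (0.951%). Of the 1581 genes that rose to day 10, 127 passed as higher and 0 as lower, and 1455 (92.0%) had a positive log2 fold change. Their median was 0.71. Of the 1266 genes that fell, 150 passed as lower and 0 as higher, 1187 were negative, and the median was -0.78. Over all genes tested 50.2% were positive and the median was 0.00. Among the named genes, Vitvi12g00248 (3.12, edgeR adjusted p = 0.014), Vitvi04g00998 (2.23, edgeR adjusted p = 0.0177) and Vitvi13g01902 (-3.18, edgeR adjusted p = 0.0197) passed. Vitvi05g01947 (-3.52, edgeR adjusted p = 0.215) did not. The count of passing genes depended on single libraries. It was 10 without day 9 replicate 3, 15 without day 7 replicate 3, 159 without day 7 replicate 2, 739 without day 7 replicate 1, 924 without day 9 replicate 1, and 0 when only days 7 and 9 entered the fit.

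**Figure D3:**
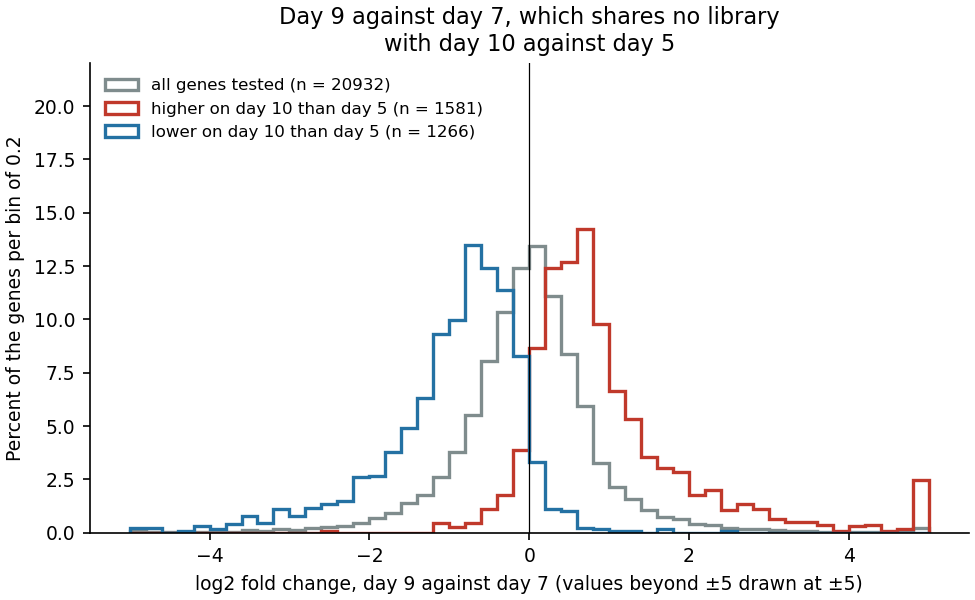
Percent of genes per bin of 0.2 against the log2 fold change of day 9 against day 7, for all genes tested, for those higher and for those lower on day 10 than on day 5. The medians are 0.00, 0.71 and -0.78.

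Part of the rising genes had been close to silent before. In 401 of the 1581 (25.4%) the mean level was under 1 CPM on each of days 0 to 4, against 883 of all 20932 genes tested (4.22%). Such genes passed the expression filter only through later days, so their share among the genes that changed is raised by the filter and is given as a description. Their first sampled day with a mean of at least 1 CPM was day 5 in 71, day 7 in 167, day 8 in 124, day 9 in 27 and day 10 in 12. Their median level was 0.386 CPM on day 5, 1.38 on day 7, 2.83 on day 8, 3.64 on day 9 and 4.59 on day 10. A mean of 10 CPM or more was reached by 1 of them on day 5, by 22 on day 7 and by 105 on day 10. In 43 of the rising genes all 3 day 5 libraries held no count, and in 18 of the falling genes all 3 day 10 libraries held none. The fitted fold changes of these genes are no bound on their change.

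Part of the genes that rose late had already been rising before day 5. Between days 1 and 4, which share no library with days 5 and 10, 555 of the 1581 rising genes had passed as higher (35.1%, against 20.4% of all genes tested) and 73 as lower (4.62%, against 13.9%). From day 0 to day 1, 254 had passed as higher (16.1%, against 15.6% of all) and 176 as lower (11.1%, against 12.2%). Increases at day 1 outnumbered decreases in the falling genes as well. At that step 326 of the 1266 had passed as higher (25.8%) and 106 as lower (8.37%), against the same 15.6% and 12.2% of all. Between days 1 and 4, 224 were higher (17.7%) and 263 lower (20.8%). The median level of the falling genes was 4.55 log2 CPM on day 0, 5.15 on day 2, 4.73 on day 5 and 3.32 on day 10. Of the 334 genes that were higher at day 1 and lower from day 1 to day 4, 62 (18.6%) fell again in the late phase and 10 (2.99%) rose, against 6.05% and 7.55% of all genes tested. This is the highest falling share among the 9 combinations of the 2 earlier steps, and the others ran from 4.02% to 9.95%.

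By daily means, the rising genes made up more of the counted RNA on each sampled day after day 5, and the falling genes made up less. The genes were chosen by the day 5 and day 10 libraries. The direction between those days therefore follows from the choice, and the shares describe its size. The genes that rose held 5.89%, 5.31% and 4.997% of the gene counts in day 5 replicates 1 to 3. On day 7 they held 8.62%, 7.71% and 7.09%, on day 8 11.4%, 8.96% and 9.20%, and on day 9 12.3%, 15.1% and 12.8%. On day 10 the shares were 14.7%, 18.7% and 14.98%. On day 0 they had been 2.57% to 3.24%. The genes that fell went from 8.47%, 7.99% and 9.09% on day 5 to 2.65%, 2.89% and 3.23% on day 10, after 11.9% to 12.6% on day 3. The highest share of the rising genes was in the libraries with the high no-feature share, replicate 2 of days 9 and 10. A list of 113 genes, chosen after the data were seen, was at least 2-fold higher in day 9 replicate 2 than in both other day 9 replicates in V. riparia, Cabernet Sauvignon and Riesling, where replicate 2 alone has a no-feature share of 29.8% to 35.5%. These genes held 8.004% and 7.82% of the counts in V. amurensis replicate 2 of days 9 and 10, against at most 2.15% in its other libraries. Of the rising genes 20 (1.27%, against 0.506% of all genes tested) are among them. Without these 20, the rising genes held 4.66% to 5.52% on day 5, 9.25% to 12.1% on day 9 and 13.7%, 13.1% and 13.6% on day 10, and replicate 2 no longer stood above the others.

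**Figure D4:**
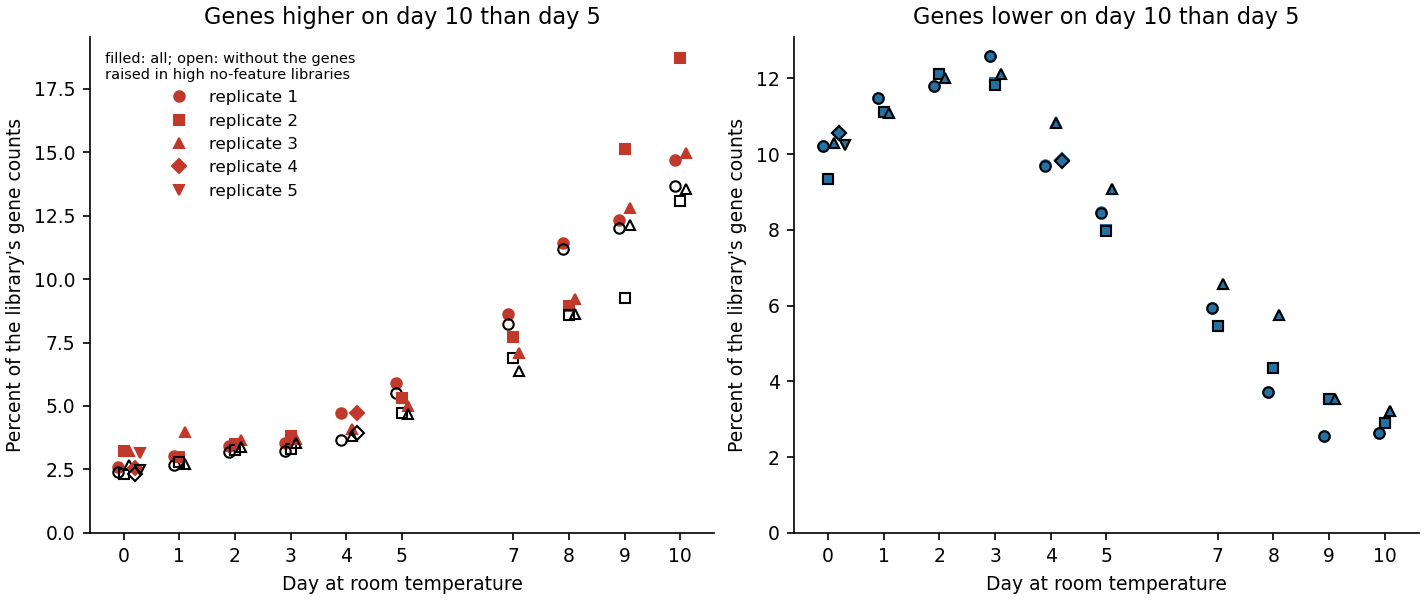
Percent of a library's gene counts in the genes higher (left) and lower (right) on day 10 than day 5, against the day at room temperature, one symbol per V. amurensis library and its shape marking the replicate number. Open symbols leave out the genes raised in libraries with a high no-feature share, which lowers day 10 replicate 2 from 18.7% to 13.1% on the left and leaves the right panel nearly as it is. The genes were chosen by the day 5 and day 10 libraries shown, so the direction between those days follows from the choice.

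As a set, the most abundant messages of the dormant bud held the same mean share of counts on day 5 and day 10, with a wider spread on day 10. The 100 most abundant genes of day 0 held 17.2% ± 0.623 of the counts on day 0 (SD, n = 4), 6.90% ± 0.755 on day 5 and 6.90% ± 1.82 on day 10 (SD, n = 3 each). Of these 100, 2 rose and 16 fell in the late phase, where 7.55% and 6.05% of all genes tested did, and their median log2 fold change was -0.37. The 100 most abundant genes of days 7 to 9 went from 11.1% ± 0.459 on day 5 to 14.2% ± 1.83 on day 10 (SD, n = 3 each), and 14 of these 100 rose and 4 fell. The 100 top genes of each library held 12.5% ± 0.774 on day 5 and 15.7% ± 2.02 on day 10 (SD, n = 3 each; exact permutation p = 0.1, two-sided). With 3 libraries against 3, 0.1 is the smallest p that this test can give. The number of genes detected after thinning to 1718825 counts was 21142 ± 341 and 21133 ± 693 (SD, n = 3 each; exact permutation p = 1).

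V. riparia buds, which were sampled until day 12, were compared over the same days. Between days 5 and 10, 6594 of 20368 genes passed there (32.4%), 3724 higher and 2870 lower. Of the genes that rose in V. amurensis, 1321 were tested there. Among these 517 were higher in V. riparia as well (39.1%, against 18.8% of the genes tested in both species) and 76 were lower (5.75%, against 14.2%). Of the 1199 falling genes tested there, 494 were lower (41.2%) and 110 higher (9.17%). The species share no library, but they share the days of sampling.

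By the interaction term in a fit of the 12 libraries, 2769 of 20617 genes (13.4%) changed differently in the 2 species from day 5 to day 10. V. amurensis had the more positive change in 856 genes (4.15%), which is 30.9% of those that differed, and the more negative one in 1913 (9.28%). Under DESeq2 the positive part was 42.5% of 3779 genes. The median difference over all genes was -0.14 with TMM scaling and -0.00 with RLE scaling. With RLE scaling in edgeR 2725 genes differed, 1037 positive (38.1%) and 1688 negative, so negative differences outnumbered positive ones under each scaling. When the no-feature share entered the fit as a covariate, 1254 genes differed. V. riparia day 5 replicate 3 has a no-feature share of 35.6%, and without it the count was 2762. Without V. amurensis day 5 replicate 2 it was 1799 and without V. riparia day 10 replicate 2 it was 1832. Of the 1529 rising genes of V. amurensis in this fit, 401 differed, 293 with the more positive change in V. amurensis and 108 with the more positive change in V. riparia. Of the 1236 falling genes, 250 differed, and the change was more negative in V. amurensis in 234. The genes were chosen on V. amurensis libraries that enter this test, so the choice favours these directions and the counts are a description.

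Of the named genes, Vitvi13g01902 and Vitvi12g00248 changed differently in V. riparia by the interaction term. For Vitvi05g01947 the difference did not pass, and for Vitvi04g00998 it could not be estimated. Vitvi13g01902 went the opposite way. In V. riparia it was at 17.2, 50.1 and 3.92 CPM on day 5 and at 172, 162 and 191 CPM on day 10, an increase of 2.77 ± 0.743 on the log2 scale (SE; edgeR adjusted p = 0.00458). The difference between the species was -8.64 ± 0.875 (SE; edgeR adjusted p = 5.84e-05). Vitvi12g00248 was at 0.579, 1.70 and 0.490 CPM on day 5 and at 6.63, 5.67 and 2.57 CPM on day 10 in V. riparia, where its change did not pass (2.16 ± 1.27, edgeR adjusted p = 0.196). The difference was 6.76 ± 1.09 (SE; edgeR adjusted p = 0.00128). Vitvi04g00998 had no count in V. riparia on day 5 and 4 counts over the 3 libraries of day 10. With no count on day 5, its fold change in V. riparia has no bound. The fitted difference of 4.73 ± 50.7 (SE; edgeR adjusted p = 0.981) therefore gives no size, and the test cannot decide whether the species differ. For Vitvi05g01947 the difference of -4.66 ± 1.49 (SE) did not pass (edgeR adjusted p = 0.0555). Its change in V. riparia was negative too but did not pass (-1.54 ± 1.22, SE; edgeR adjusted p = 0.348).

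**Figure D5:**
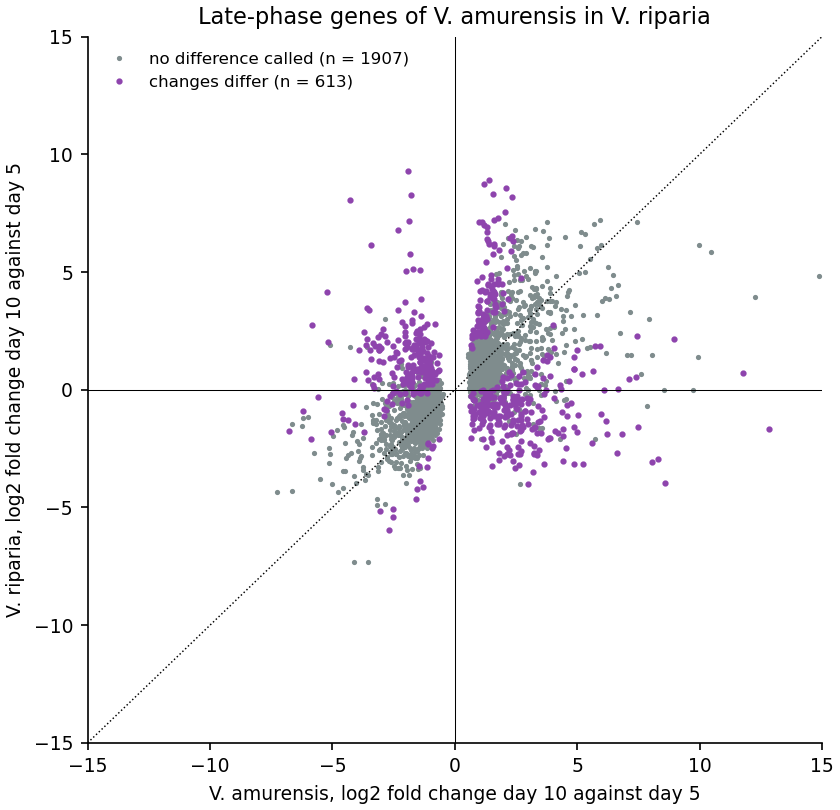
Log2 fold change of day 10 against day 5 in V. riparia (vertical) against that in V. amurensis (horizontal) for the 2520 late-phase genes of V. amurensis tested in V. riparia, one dot per gene, and the dotted line marks equal change. The 613 genes whose changes differ by the interaction term are drawn in purple and lie on either side of the line.

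The genes that rose at least 4-fold in V. amurensis were also counted in the other genotypes. The 725 of these genes outside the list of 113 held 0.139% ± 0.0146 of the counts on day 0 in V. amurensis (SD, n = 4), 0.536% ± 0.105 on day 5 and 4.25% ± 0.639 on day 10 (SD, n = 3 each). In V. riparia they held 0.509% ± 0.124 on day 10, 0.840% ± 0.269 on the last day, day 12, and its highest mean of 1.17% ± 0.607 on day 11 (SD, n = 3 each). Cabernet Sauvignon stood at 0.497% ± 0.0660 on day 10 (SD, n = 2) and 1.76% ± 0.621 on day 17 (SD, n = 3), with its highest mean of 2.24% ± 0.570 on day 16 (SD, n = 3), and Riesling at 0.511% ± 0.105 on day 10 and 1.97% ± 0.323 on day 15 (SD, n = 3 each). The genes were chosen for being high on day 10 in V. amurensis, so its larger share there follows in part from the choice. Vitvi12g00248 reached its highest daily mean at 338 CPM on day 16 in Cabernet Sauvignon, at 286 CPM on day 15 in Riesling and at 99.4 CPM on day 11 in V. riparia, against 1086 CPM on day 10 in V. amurensis. Vitvi04g00998 reached 54.2, 22.1 and 5.38 CPM on the same days in these 3 genotypes, against 210 CPM in V. amurensis.

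Some genes with consecutive identifier numbers changed in the same direction. Of 952 rising genes whose next identifier was tested, 125 (13.1%) had a rising gene there, against 7.17% of all 13185 pairs. Of 782 falling genes 85 (10.9%) were followed by a falling gene, against 6.14%. Neighbouring numbers can belong to near-identical copies, between which the authors' counting may have split or set aside reads, and their part in these shares was not tested. The share of genes that passed ran from 7.24% to 16.3% over the 2-digit fields of the identifiers, lowest in field 00.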

How the data were processed

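Gene counts were measured by RNA sequencing of whole buds, taken from dormant canes on day 0 and after forcing at room temperature on the later days. Whole-number counts per gene were deposited by the authors, one table per library, with 5 bookkeeping rows for unassigned records, which were left out of library sizes and tests. The submitters' processing notes name cutadapt, STAR, HTSeq and DESeq2. The genome build and annotation are not given in the sources used here. Identifiers have the Vitvi form of a V. vinifera annotation, so reads of V. amurensis that differ from it may be lost.

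Genotype, day and replicate were taken from the labels. All 32 V. amurensis libraries entered one fit with day as a factor, in which libraries of a day closer than a pair biological coefficient of variation of 0.08 were summed, leaving 31 samples. edgeR 4.0.16 (R 4.3.3) was used with TMM scaling and its expression filter, and adjusted p-values (Benjamini-Hochberg) under 0.05 passed. Standard errors come from the F statistic. The V. riparia fit was made alike, and the interaction fit used days 5 and 10 of both species. Library measures were compared by exact permutation in Python 3.11.15. Named genes are the 2 rising and 2 falling genes with the largest change among those that passed, did not overlap between the days, and had a mean log2 CPM of at least 3 and a mean of at least 1 CPM on the lower day. Members, lists and tests were chosen with earlier results of these data known. Lists of named pathway genes were drawn up but could not be applied, as the identifiers have no names. The contrasts of days 8 and 9 with day 5, the list of 113 genes, the depth limit for markers and the block fit of 2 days were added after the data were seen. The fits were also run on simulated data with known changes in a small set of expressed genes. In the real data many more genes changed, so no conclusion is drawn from that run here.

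Same replicate numbers count as pairs where all 3 correlations of deviations exceed 0.1. This held for days 5 and 7 (0.25 to 0.38), 7 and 8 (0.28 to 0.39) and 9 and 10 (0.40 to 0.59), but not for days 5 and 10 (-0.17 to -0.03).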

Additional observations from a re-analysis of the deposited data

Results flagged for a closer look

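The change from day 5 to day 10 was not alike in the wild species: 2769 genes passed the test of the difference itself. Of the named genes, Vitvi13g01902 passed with a difference of -8.64 ± 0.875 on the log2 scale (SE; edgeR adjusted p = 5.84e-05), V. amurensis minus V. riparia, and all 3 V. riparia libraries of day 10 lay above all 3 of day 5 while the V. amurensis libraries did the opposite. Vitvi12g00248 passed with a difference of 6.76 ± 1.09 (SE; edgeR adjusted p = 0.00128), and its days did not overlap in V. riparia either. Both genes were named for large changes without overlap in V. amurensis. That choice fixed the separation there and favours a difference between the species.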

How the results depend on the processing

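All 4 named genes kept their sign and an adjusted p under 0.05 in each of 15 recomputed fits, up to 0.0483 for Vitvi05g01947. The 2847 genes of day 10 against day 5 became 1783 with the days compared alone, 1084 with a replicate block added there, and 2278 to 3454 in the other fits that kept all libraries of these days or all below 25% no-feature share. With the replicate block in the fit of all days it was 2654. Leaving out 1 library gave 1621 (without day 5 replicate 3) to 2547. The steps moved most. DESeq2 gave 239, 115, 824, 108 and 2 genes for days 7 against 5, 8 against 7, 9 against 7, 9 against 8 and 10 against 9. The days compared alone gave 45, 2 and 0 for the first 3 of these, and with the block 549, 132, 0, 1 and 102 in the same order. Without a low-count filter 8 against 7 gave 110 and 9 against 8 gave 137. Within 25% no-feature share 8 against 7 gave 62. Leaving out 1 library gave 35 (without day 5 replicate 3) to 99 for day 7 against 5, where it was 38 without day 5 replicate 2 and 73 without day 7 replicate 3. It gave 2 (without day 7 replicate 3) to 43 (without day 8 replicate 2) for 8 against 7, 10 to 924 for 9 against 7, and 0 to 165 (without day 8 replicate 1) for 9 against 8, where it was 68 without day 8 replicate 2. In V. riparia the block fit of 2 days gave 2570, and the species difference was 1254 with the no-feature covariate and 1799 to 2762 without 1 library. The cause of these moves was not tested. The difference between days 5 and 10 in the share of records aligned to more than 1 place ran from -0.132 (without day 10 replicate 2) to 0.987 percentage points, and that in genes detected from -334 to 356 genes. It was 184 without day 5 replicate 1 and 356 without day 10 replicate 1, so neither has a stable sign. Depth limits genes near 1 CPM most, in day 10 replicate 2 and day 9 replicate 1.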
